A study of Arabidopsis thaliana with 3 samples.

Results

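The change in the effect of ABAP1 overexpression as the Arabidopsis flower opens was described by subtracting, for each transcript probe, the log2 ratio in flower buds from that in open flowers. A positive difference, called an upward shift, means that the transcript stood higher relative to wild type in open flowers than in buds, and a negative one, a downward shift, that it stood lower. The values came from 2-colour arrays of long oligonucleotides on which ABAP1OE plants were compared with wild-type Col-0 plants of the same stage. ABAP1OE plants, also Col-0, carried the ABAP1 coding sequence behind the 35S promoter of cauliflower mosaic virus, which is active in most plant tissues but known to be weak in pollen. In these plants the paper reported a stronger ABAP1 protein signal than in wild type in reproductive organs, with both gametophytes among them. It also reported more ABAP1 mRNA in flower buds. Both genotypes were grown under the same conditions without further treatment, and RNA came from pooled buds of stage 13 and pooled open flowers of stage 14, with siliques of stages 15 and 16 as a later sample. Each stage had 3 biological replicates, which the authors combined into 1 ratio per probe. No error between plants could therefore be given and no test was made, and every value below describes these combined arrays. In pools of whole organs, fewer cells of a type and less RNA per cell cannot be told apart.

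ABAP1 is an armadillo BTB protein of plants that binds components of the pre-replication complex and the transcription factor TCP24, and it is known as a brake on cell division. At stage 13 the bud opens and the embryo sac is mature, and at stage 14 the long anthers overtop the stigma while pollen is shed and nectar is secreted. A ratio of ABAP1OE over wild type at each stage thus compares flowers in which late pollen, embryo sac, nectary and petal genes are themselves changing. ABAP1 itself was on 0 probes with a gene name, so its overexpression could not be checked in these values, and ratios carry no level by which the labelled organ could be set against marker genes.

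Of 26545 rows of the table, 26474 were transcript probes and 25554 of these had a ratio at both stages. Probes with a ratio of 2.2 or more in size at either stage were left out, which removed 809 (3.17%) and left 24745. The largest ratio inside the limit was 2.1953 in size and the smallest outside it 2.2016. Of the probes left out, 577 were past the limit on the lower side in buds and 17 on the higher side, against 521 and 26 in open flowers. A single value, -2.21, was shared by 361 transcript probes in buds and 352 in open flowers, 171 of them the same probes, and it was also the value of 19 of the 36 empty spots in buds and 23 in open flowers. None of the 36 empty spots lay inside the limit at both stages. The 24745 probes comprised 5615 that list 1 gene, 7252 that list several and 11878 with no gene name here. Genes were named only from probes of their own, which gave 5262 genes of 5413 with ratios at both stages. Of these 5262, 526 have a symbol in the RefSeq annotation and 4736 are known by their locus alone.

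Over the 5262 genes the median shift was 0.00 and the quartiles were -0.21 and 0.20 on the log2 scale. The SD was 0.42, close to the 0.44 of the corresponding step from open flowers to siliques. The effect changed by less than 1.5-fold for 4604 genes (87.5%). At least 2-fold upward shifts were found for 126 genes (2.39% of those measured) and at least 2-fold downward shifts for 77 (1.46%). Over all 24745 probes the shares were 2.19% and 1.39%. Of 276 genes with more than 1 probe of their own, 229 carried the same ratio on each of them, so that only 47 could show how far probes of a gene differ. In these 47 the pooled SD of the shift between probes was 0.35, with a largest gap of 2.24, and on 12 control spots of one kind the shift ran from -0.22 to 0.65 with an SD of 0.25. A 2-fold shift exceeds both of these SDs, but the largest gap between probes of 1 gene exceeds it.

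**Figure D1:**
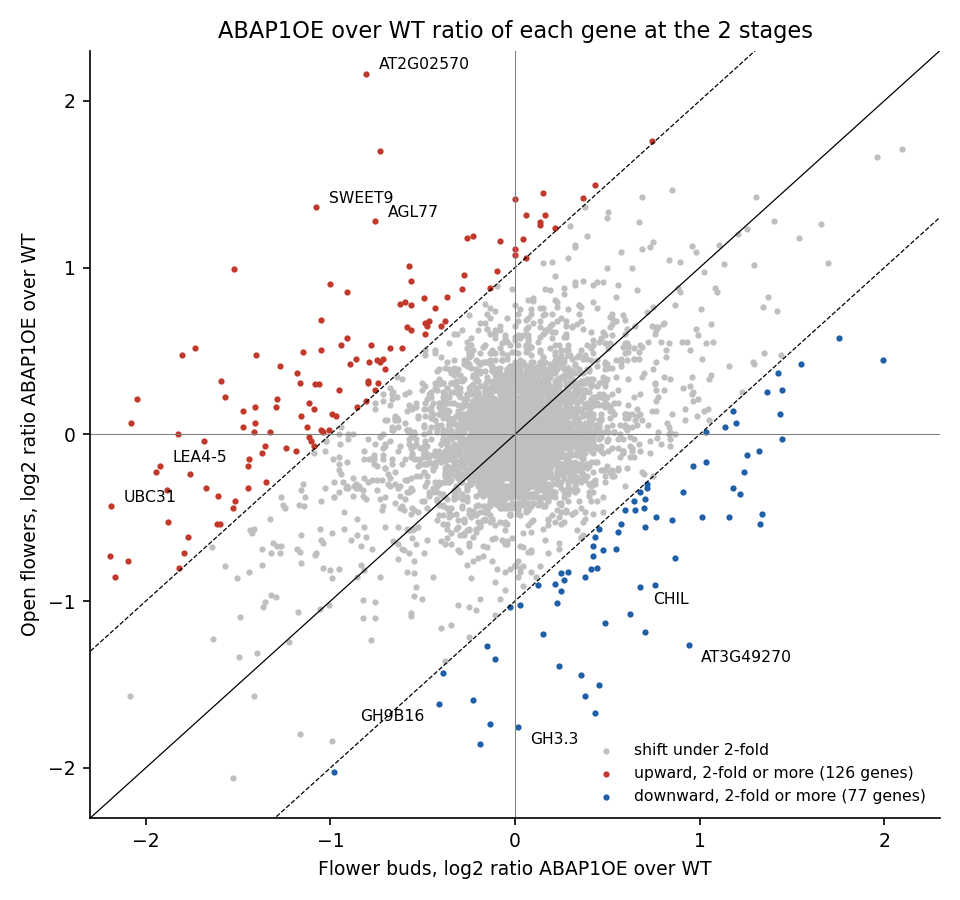
Log2 ratio of ABAP1OE over wild type (WT) in flower buds (horizontal) and open flowers (vertical) for 5262 genes, 1 point per gene. The solid line marks an equal ratio at both stages and the dashed lines a 2-fold shift. The 126 upward genes lie mostly left of zero in buds, and the 77 downward genes run from the lower centre to the right.

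Inside the limit, the ratios at the 2 stages were loosely related across genes (Pearson r = 0.29 over 5262 genes, which are not independent replicates). The correlation was not computed without the limit, and 332 of the 809 probes left out were past it at both stages. Genes that were within 1.5-fold of wild type in buds had a median of 0.00 in open flowers. The 174 genes that were 1.5-fold to 2-fold lower in buds had a median of -0.18 in open flowers, and the 151 that were 1.5-fold to 2-fold higher had one of 0.20. Genes chosen on their bud ratio therefore tended to keep their side of wild type with a smaller size. A smaller size at the other stage comes in part from the choice itself. The reverse choice gave the same pattern. The 51 genes at least 2-fold lower in open flowers had a median of -1.23 there and -0.38 in buds. The 57 at least 2-fold higher had medians of 1.19 and 0.43. The bud ratio enters the shift with a minus sign, so that a gene low in buds for any reason, measurement error included, tends to shift upward by construction. The shift of a group chosen on its bud ratio is for this reason given as a description. The open flower ratio entered the choice only through the size limit. That limit left out 521 probes on the lower side in open flowers and 26 on the higher side.

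In buds, 120 genes (2.28%) were at least 2-fold lower in ABAP1OE and 56 (1.06%) at least 2-fold higher. Their places in open flowers, inside the size limit, were as follows. Of the 120 lower genes, 72 (60.0%, 95% exact binomial interval over genes 50.7% to 68.8%) were within 1.5-fold of wild type in open flowers. A further 30 were 1.5-fold to 2-fold lower, 14 (11.7%) were still at least 2-fold lower, and 4 were at least 1.5-fold higher. Their median went from -1.32 in buds to -0.38 when open, and was -0.13 in siliques. Of the 56 higher genes, 36 (64.3%, interval 50.4% to 76.6%) were within 1.5-fold in open flowers, 8 were 1.5-fold to 2-fold higher, 12 (21.4%) were still at least 2-fold higher and 0 had crossed to 1.5-fold lower. Their median went from 1.25 to 0.43 and then 0.08. Without the limit 104 of 238 lower genes (43.7%) and 37 of 60 higher genes (61.7%) were within 1.5-fold in open flowers, so for the lower genes the share depends on the limit. These intervals cover the counting of genes only, which share arrays and pathways. For scale, 4761 of all 5262 genes were within 1.5-fold of wild type in buds, and the same count in open flowers is not given here.

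The opposite view, from open flowers back to buds, gives the overlap inside the limit. Of the 809 probes left out, 332 were past the limit at both stages, so the limit itself lowers this overlap. In open flowers 51 genes (0.969%) were at least 2-fold lower and 57 (1.08%) at least 2-fold higher. Of the 51, 28 had been within 1.5-fold of wild type in buds and 14 had already been 2-fold lower. These 14 make up 11.7% of the genes lower in buds and 27.5% of those lower in open flowers. Of the 57 higher genes, 29 had been within 1.5-fold in buds and 12 had already been 2-fold higher, which is 21.4% of the bud list and 21.1% of the open flower list. Inside the limit there were 120 lower and 56 higher genes in buds and 51 and 57 in open flowers. The probes left out were mostly on the lower side, and without the limit the counts were 238 and 60 in buds and 152 and 69 in open flowers. Then 82 genes were lower at both stages, 34.5% of the bud list and 53.9% of the open flower list, and 14 were higher at both, 23.3% and 20.3%. The value -2.21, which empty spots share, was held by 171 transcript probes at both stages. How many of the 82 genes carry it is not given here.

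**Figure D2:**
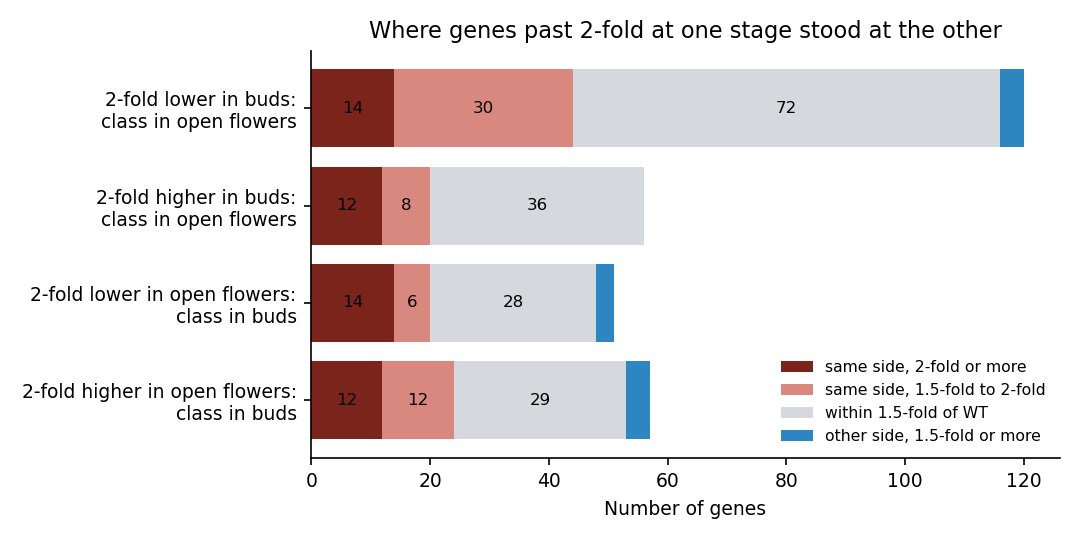
Number of genes past 2-fold in either direction at one stage, divided by their class at the other stage. In the upper pair of bars 72 of 120 and 36 of 56 genes past 2-fold in buds were within 1.5-fold of wild type (WT) in open flowers, and in the lower pair 28 of 51 and 29 of 57 genes past 2-fold in open flowers had been within 1.5-fold in buds.

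The 126 upward shifts were of several kinds. In 54 genes a transcript at least 2-fold lower in buds was within 1.5-fold of wild type in open flowers, in 21 one that was 1.5-fold to 2-fold lower in buds was within 1.5-fold, and in 17 a transcript near wild type in buds became at least 2-fold higher in open flowers. In 41 genes, the 21 included, neither stage passed 2-fold. The 77 downward shifts comprised 22 genes that came down from at least 2-fold higher to within 1.5-fold, 18 that went from near wild type to at least 2-fold lower, and 33 in which neither stage passed 2-fold. By the silique stage, 86 of the 126 upward genes and 47 of the 77 downward genes were within 1.5-fold of wild type. The same count over all genes in siliques is not given here, so these are not read as a return. In buds, 4761 of all 5262 genes were within 1.5-fold.

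The largest upward shift belonged to AT2G02570, with a ratio of -0.81 in buds and 2.16 in open flowers, a shift of 2.97. Its silique ratio was -2.21, the value that empty spots also share. AT1G57550, of a low temperature and salt responsive protein family, went from -1.52 to 0.99 and was back at -0.01 in siliques. These genes differ in where they started, since the former was under 2-fold lower in buds and the latter well past it. *SWEET9*, which encodes the sucrose exporter of the nectary that is needed for nectar secretion, was lower in ABAP1OE buds at -1.08 and higher in open flowers at 1.36, and stayed higher in siliques at 1.11. Its shift of 2.44 was the third largest, and it was the only gene of the 5262 to go from at least 2-fold lower to at least 2-fold higher, while 0 made the reverse change.

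A second group of the largest upward shifts consisted of genes strongly lower in buds that reached about the wild-type level. AT1G20130, a GDSL-type esterase or lipase gene, went from -1.73 to 0.52, and AT2G01240, a reticulon gene of the endoplasmic reticulum, from -1.59 to 0.32. AT1G29480 went from -2.08 to 0.07, AT2G46850 from -2.05 to 0.21 and AT5G50915 from -1.80 to 0.48, and these loci carry no description here. The remaining members of the top 10 stood above wild type in open flowers. *AGL77*, a MADS-box gene of the AGAMOUS-like family, was at -0.76 in buds and 1.28 in open flowers, a shift of 2.04, and at 0.52 in siliques. AT5G07160 went from -0.73 to 1.70. When probes that they share with other genes were averaged in, AT2G46850 and AT5G07160 each had a shift of 1.26 in place of 2.26 and 2.43.

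Apart from *SWEET9* and AT1G57550, 2 genes passed from at least 2-fold lower in buds to at least 1.5-fold higher in open flowers. AT3G13280 was exactly 2-fold lower and then at 0.90, and AT1G67540 at -1.05 and then 0.69. They parted again in siliques, where AT3G13280 was at -1.90 and AT1G67540 at 0.78. The genes that stayed lowest after a 2-fold lower ratio in buds were AT5G25870 at -1.53 and then -2.06, AT3G44380 at -1.16 and then -1.79, AT4G17260 at -2.09 and then -1.57, AT2G15340, a glycine-rich protein gene, at -1.41 and then -1.57, and AT5G50830 at -1.50 and then -1.33. Of these, AT5G50830 was near wild type in siliques at -0.20. On the higher side AT1G48200 stayed at 2.10 and then 1.71, AT4G16220 at 1.96 and then 1.66, AT5G18940 was at 1.42 when open, having been at least 2-fold higher before, AT1G59690 stayed at 1.40 and then 1.28, and AT1G21323 at 1.66 and then 1.26. In siliques these ranged from -0.67 for AT1G21323 to 0.77 for AT4G16220.

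The largest downward shifts started above wild type in buds and ended below it, with 1 exception. AT3G49270 went from 0.94 to -1.26, a shift of -2.20, AT3G13370 from 0.43 to -1.67 and AT1G72580 from 0.45 to -1.50. AT3G29791, AT3G01175 and AT1G63205 were at 0.38, 0.70 and 0.36 in buds and at -1.57, -1.18 and -1.44 in open flowers. Only AT1G13310, at 1.33 and then -0.54, and AT1G19040, at 1.34 and then -0.48, had been at least 2-fold higher in buds. None of these loci carries a symbol or description here. The tenth, AT5G43000, went from 0.62 to -1.08. With shared probes averaged in, the shift of AT3G01175 was -0.86 in place of -1.89 and that of AT1G63205 was -0.36 in place of -1.80. The exception among the 10 was *GH3.3*, whose enzyme joins amino acids to auxin and lowers the free hormone. It was at the wild-type level in buds (0.01), at -1.76 in open flowers and still at -1.53 in siliques.

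Among the 526 genes with a symbol, 9 shifted upward and 6 downward by at least 2-fold, which is 1.71% and 1.14% of them, against 2.39% and 1.46% of all genes. This set was looked at after the values were known, and genes in it that the naming rule had not chosen are *LEA4-5*, *PAP20* and *CHIL*. *UBC31*, a ubiquitin-conjugating enzyme gene expressed in antipodal cells of the embryo sac, was at -2.19 in buds, just inside the limit, at -0.43 in open flowers and at 0.36 in siliques. *LEA4-5*, a late embryogenesis abundant protein gene induced by water loss, was at -1.92, -0.19 and 1.21 at the 3 stages, so that it ended at least 2-fold higher than wild type. The purple acid phosphatase gene *PAP20* was at -1.18, 0.37 and 0.83. The ratios of these 3 genes were higher at each later stage.

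*EC1.1*, one of the small secreted proteins of the egg cell that activate sperm at fertilisation, was at -1.61 in buds, -0.37 in open flowers and -0.28 in siliques. *UF3GT*, a sugar transferase of flavonoid pigments, was at -1.67, -0.32 and 0.00. The shifts of 1.24 and 1.35 were reduced to 0.68 for *EC1.1* and 0.69 for *UF3GT* when shared probes were averaged in. *SAG29*, also known as SWEET15 and encoding a sucrose exporter of senescing and seed tissues, was at -0.57, 0.62 and 0.70, and *BGLU36*, of the beta-glucosidase family, at -1.09, -0.07 and 0.16. For 5 of these 9 upward genes, *UBC31*, *LEA4-5*, *UF3GT*, *EC1.1* and *BGLU36*, the open flower ratio was still below zero.

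The 6 downward genes with a symbol included 2 of cell wall families. *EXPA21*, an expansin that loosens the wall, was at 0.44, -0.80 and -0.56 at the 3 stages, and *GH9B16*, an endoglucanase of glycosyl hydrolase family GH9, at -0.41, -1.62 and -1.45. With shared probes averaged in, the shift of *GH9B16* was -0.67 in place of -1.21. *CHIL*, a chalcone isomerase-like protein that promotes flavonoid synthesis, was at 0.68, -0.92 and -0.82. *GSTU20*, a glutathione transferase of the tau class, was at 0.64, -0.40 and -0.16, and *GOA*, the MADS-box gene AGL63 that limits fruit growth, at 0.65, -0.45 and 0.79. The lower ratios of *GH3.3*, *GH9B16*, *CHIL* and *EXPA21* in open flowers were thus largely kept into siliques, whereas *GOA* had returned above wild type.

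**Figure D3:**
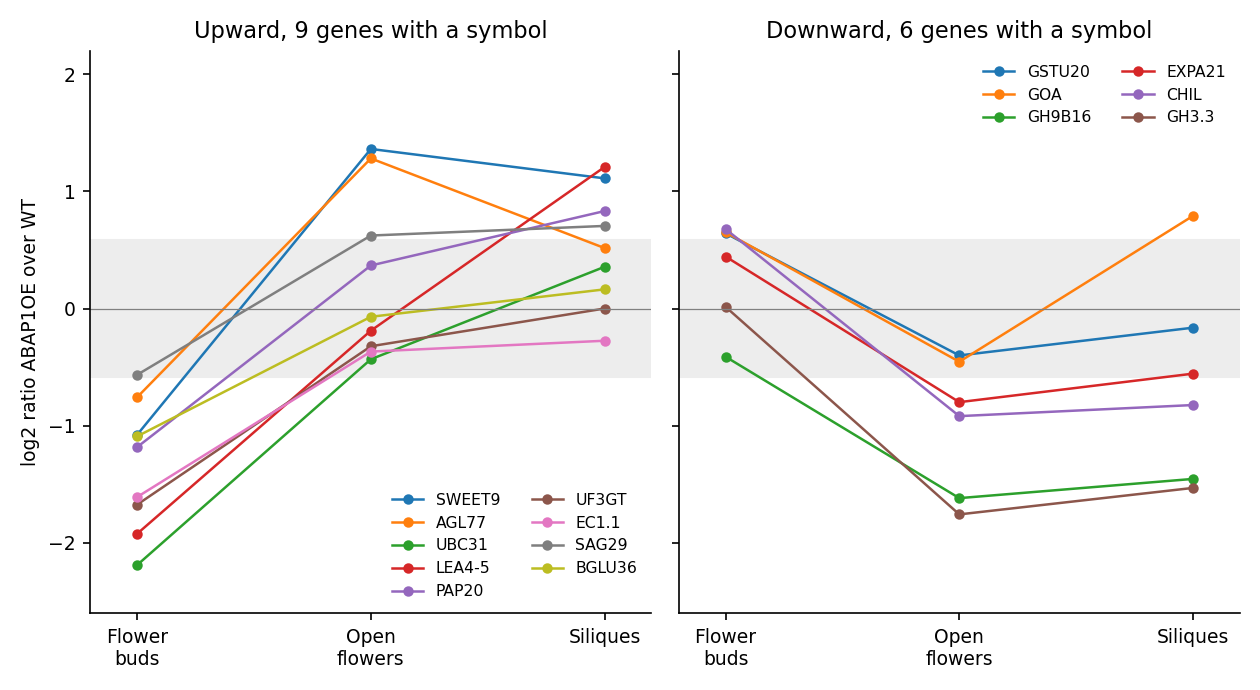
Log2 ratio of ABAP1OE over wild type (WT) at the 3 stages for the genes with a symbol that shifted at least 2-fold from buds to open flowers, 9 upward (left) and 6 downward (right), 1 line per gene and 1 combined value per stage. The grey band marks ratios within 1.5-fold of wild type. *SWEET9* and *AGL77* cross from below to above the band, while *GH3.3* and *GH9B16* are near -1.5 in both later stages.

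The study's own list of genes changed in buds gives a set that was chosen with replicates on the bud arrays and without the open flower values. Of its 247 genes, 44 have a probe of their own inside the limit, 39 listed as lower and 5 as higher, and all 44 had the listed direction in the bud column. Because these genes were picked on the bud values, their open flower ratio is the measure to read, inside the limit. The limit applied to open flowers too, so a listed gene past it there was left out before the counts below. Counts for this list without the limit are not given here, so how far they depend on it is unknown. Over all genes at least 2-fold lower in buds, 60.0% were within 1.5-fold in open flowers inside the limit and 43.7% without it. Among the 39 lower genes the open flower ratio ran from -1.57 to 0.99 with a median of -0.44, against -1.41 in buds. In open flowers 23 were within 1.5-fold of wild type, 12 were 1.5-fold to 2-fold lower, 3 were still at least 2-fold lower and 1, AT1G57550, was higher. The 81 other genes that were at least 2-fold lower in buds had a median of -0.33 in open flowers, with 49 within 1.5-fold. On 11 probes that list several genes, all of them lower in the study's list, the median went from -1.43 to -0.69, and 4 were within 1.5-fold. Of the 5 higher genes, 3 were within 1.5-fold and 2 still at least 2-fold higher.

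The descriptions in that list allow some of these 39 genes to be grouped by function, although each group is small and was formed after the values were known. Of 3 esterase genes of the GDSL or SGNH type, AT1G20130 and AT5G42170 stood above wild type in open flowers at 0.52 and 0.31, after -1.73 and -1.16 in buds, whereas AT2G19010 was still at -0.59 after -1.42. Late embryogenesis abundant genes were likewise split. AT1G52680 returned from -1.05 to 0.03 and *LEA4-5* to -0.19, but AT2G46300, of the hydroxyproline-rich type, stayed at -0.72 after -1.08. The oleosin gene AT2G25890, of the proteins that coat oil bodies, went from -1.16 to 0.11.

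Genes for carriers and the wall ended at different distances from wild type. The amino acid transporter gene AT1G71680 went from -1.45 to -0.32 and the vesicle protein gene AT3G29070 of the p24 family from -1.29 to 0.21, while the sugar carrier gene AT3G05150 stayed at -0.67 after -1.27. The beta-expansin gene *EXPB5* was at -1.44 and then -0.58, the pectin methylesterase inhibitor gene AT2G10970 at -1.37 and then -0.69, and the family 17 glycosyl hydrolase gene AT5G64790 at -1.44 and then -0.82. With shared probes averaged in, the shift of AT3G29070 was 0.68, under 2-fold, and that of AT5G64790 was 0.32 in place of 0.62. None of these 3 wall genes came within 1.5-fold except *EXPB5*, which lay at the edge of it. The 3 genes that stayed at least 2-fold lower were AT2G15340, the small heat shock protein gene AT5G37670 at -1.18 and then -1.06, and AT1G29140, of the pollen Ole e 1 allergen and extensin family, at -1.36 and then -1.01. AT5G26060, of the self-incompatibility S1 family of small secreted proteins, was just short of them at -0.98 after -1.29.

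Pollen is named in the first 400 characters of the description of 15 of the 39 lower genes. These 15 had a median ratio of -1.36 in buds and -0.67 in open flowers, and 5 of them were within 1.5-fold of wild type in open flowers. The other 24 had nearly the same median in buds, -1.43, but one of -0.36 in open flowers, and 18 were within 1.5-fold. The open flower ratios of both groups overlapped widely, from -1.57 to 0.99 and from -1.06 to 0.52. The descriptions were cut at that length, so a gene without the word may still be expressed in pollen. Both groups hold only genes inside the size limit, and no counts without it are given for this split.

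**Figure D4:**
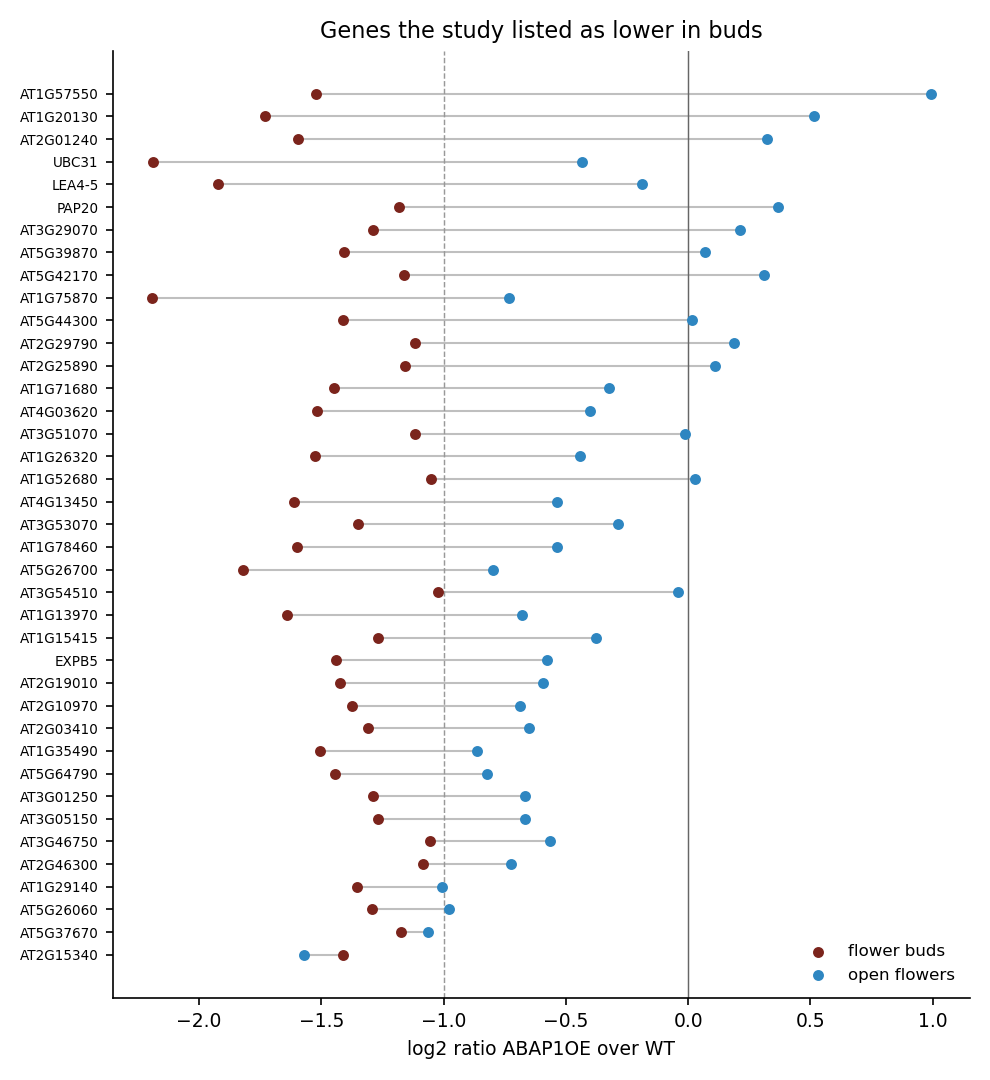
Log2 ratio of ABAP1OE over wild type (WT) in flower buds (dark red) and open flowers (blue) for the 39 genes that the study listed as lower in buds and that have a probe of their own inside the limit, ordered by shift. The dashed line marks 2-fold lower. All 39 start left of it, because they were chosen there, and 3 remain left of it in open flowers, 1 of them, AT2G15340, further left than in buds.

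Gene families were examined by the shift of members with a probe of their own. Of all 5262 genes, 48.0% had a shift above zero and 50.0% one below. Of 5 SWEET sugar exporters, *SWEET9* and *SAG29* shifted upward by at least 2-fold, as did 2.39% of all genes, and the other 3 lay between -0.20 for *SWEET2* and 0.05 for *SWEET8*, so that the median was 0.05. With shared probes averaged in, the shift of *SWEET2* was 0.20, with its sign turned, that of *SWEET8* was 0.45 and the median 0.37, while over probes that list SWEET genes alone the median was 0.24. *SWEET8*, needed for the pollen wall, was lower at every stage on the 1 probe of its own, with -0.83 in buds, -0.78 in open flowers and -0.77 in siliques. A probe shared with *SWEET6* and *SWEET7* was at 0.26, 0.04 and -0.83. Another, shared with *AtVEX1* and *SWEET4*, was at -1.43, 0.08 and -0.10. Of 14 probes that list SWEET genes alone, 8 were above zero and 3 were past 2-fold upward, as were 2.19% of all probes, while 0 were past 2-fold downward.

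Auxin genes shifted the other way on their own probes. All 7 IAA and GH3 genes were below zero, with a median of -0.41. Besides *GH3.3*, they included *IAA31*, a repressor of the auxin response, at 0.07 in buds and -0.70 in open flowers, *IAA29* at -0.04 and then -0.54, and *GH3.1* at 0.42 and then 0.01. The smallest shift was the -0.02 of *IAA15*. This direction was not shared by the 4 probes that list several genes of these families, all of which were above zero. Those that list *GH3.17* with *GH3.9* had identical values and so count as 1 measurement. Averaging shared probes in moved *IAA31* from -0.78 to -0.20.

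Photosystem and antenna genes moved little but in 1 direction. Each shift was under the SD of 0.35 between probes of a gene and inside the control spot range of -0.22 to 0.65. *PSB27*, *PSBW*, *PSAN*, *LHB1B2* and *PSBY* shifted by 0.34, 0.29, 0.30, 0.28 and 0.06, with a median ratio of -0.03 in buds and 0.28 in open flowers. All 7 probes of such genes, counting 2 with identical values that list several, were above zero, against 49.2% of all probes, and none was near 2-fold. Histone genes had the lowest median of the families with at least 5 genes, -0.41. *HIS4*, *HTB11*, *HTB4* and the centromeric histone gene *HTR12* had shifts of -0.69, -0.50, -0.41 and -0.32, and only *HIS1-3*, the linker histone induced by drought, was above zero, at -0.28 in buds and 0.44 in open flowers. None of the 5 passed 2-fold.

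Cell wall families were mixed. Of 6 GH9 endoglucanase genes 4 were below zero, with a median of -0.30, and *GH9C1* went from 0.56 to -0.21. The counterexample *GH9B12* went from -0.36 to 0.07, although its shift of 0.43 became -0.11 with shared probes averaged in, and the 15 probes of the family included 1 past 2-fold in each direction. The 5 expansin genes ranged from the -1.24 of *EXPA21* to the 0.86 of *EXPB5*. Their median, 0.20, became -0.27 over the 13 probes that list expansins alone, so the family had no stable direction. The 5 xyloglucan transferase genes lay between -0.39 for *XTH21* and 0.27 for *XTH19*.

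The 17 AGAMOUS-like genes had a median of 0.03 and a wide range, from -1.10 for *GOA* to 2.04 for *AGL77*. *AGL76* went from 0.40 to -0.37 and *AGL79*, at locus AT1G30260, from -0.24 to 0.48. *AGL61*, also called DIANA and needed for central cell development, is the one with a probe of its own among 15 genes listed from the study's text. It was at -0.40, 0.06 and -1.79 at the 3 stages, and its shift of 0.46 became -0.18 with shared probes averaged in. Of the 20 UGT glycosyltransferase genes 14 were above zero, with a median of 0.11, *UGT84A1* at -0.73 and then -0.01 being the next after *UF3GT*. The opposite case was *UGT78D1*, which adds rhamnose to flavonols, at 0.01 and then -0.76. With shared probes averaged in, the shift of *UGT78D1* was -0.32 in place of -0.77 and that of AT1G30260 was 0.24 in place of 0.71.

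Ubiquitin ligase genes of the ATL and PUB families had a median of 0.55 over 5 genes, which was 0.19 with shared probes averaged in. *PUB15* went from -0.88 to 0.00, *PUB54* from -0.56 to 0.15, a shift of 0.71 that became 0.46 with shared probes, and *ATL43* from -0.21 to 0.33, whereas *PUB24* came down from 1.07 to 0.56. The 8 beta-glucosidase genes had a median of 0.23, which was 0.08 with shared probes averaged in. Of these genes 6 were above zero, with *BGLU33* at -0.20 and then 0.43. All 5 IQD genes, which encode calmodulin-binding scaffold proteins, were below zero, with *IQD19* at 0.44 and then -0.40, but 3 of 11 probes of the family were above zero, and shared probes reduced the shift of *IQD19* from -0.84 to -0.22. Of 10 serine carboxypeptidase-like genes 7 were not above zero, among them *scpl25* at 0.25 and then -0.54. The median of this family, -0.18, became 0.03 with shared probes averaged in.

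**Figure D5:**
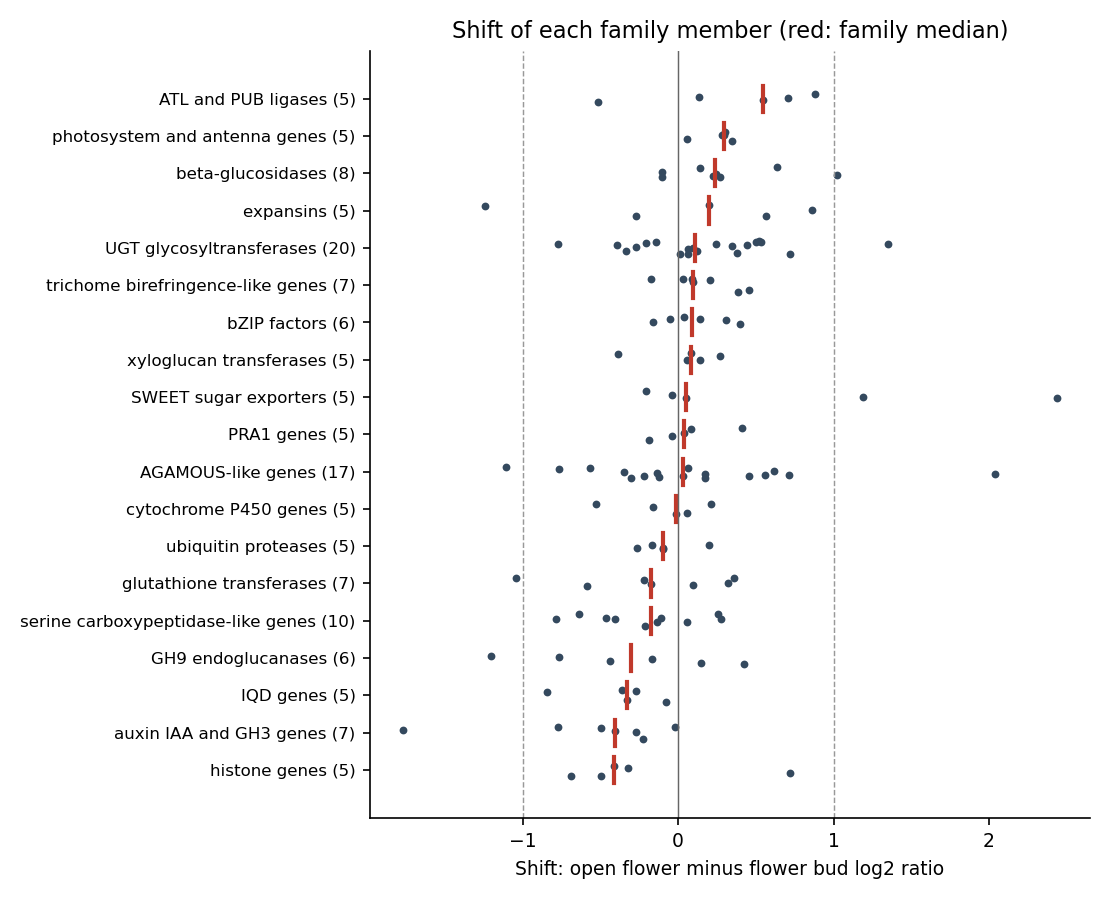
Shift from buds to open flowers (log2) of each member with a probe of its own, for families with at least 5 such genes (number in brackets). Points are genes, the red bar is the family median and dashed lines mark 2-fold. Family medians lie between -0.41 for histones and 0.55 for ATL and PUB ligases, well inside 2-fold, and at most 2 members of a family are past 2-fold.

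Lists of genes for floral cell types and processes were mostly out of reach of probes with 1 gene. Of 46 pollen genes 2 were measured. *PLIM2b*, which bundles actin in pollen, was at -0.98 in buds and -0.29 in open flowers, and the other was *SWEET8*. Of 14 embryo sac genes 5 were measured, and *UBC31*, *EC1.1* and *AGL61* were above zero while *DME*, a DNA glycosylase that demethylates the central cell genome, and *FER*, a receptor kinase of pollen tube reception, had shifts of -0.04 each. A second egg cell gene, *EC1.5*, went from -0.66 to 0.03. Of 6 nectary genes only *SWEET9* was measured and of 13 flavonoid genes only *UGT78D1*, while the 2 of 6 terpene genes that were measured shifted by 0.83 and 0.28. For sperm cell, jasmonate, floral identity, and replication and cell cycle genes, 0 list members could be measured in this way.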

How the data were processed

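The deposited values were log2 ratios of ABAP1OE over wild type. The authors had used both dyes for each genotype and merged 3 biological replicates into 1 column per stage. How background was corrected and arrays were normalized is not given in the sources used here, and no intensities were used, so the signal behind a ratio is unknown. The direction was taken from the labels, and in buds the sign was the same as in the study's list for 44 of 44 genes.

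For each transcript probe with both values the flower bud ratio was subtracted from the open flower ratio. Control spots (71) and probes with either ratio 2.2 or more in size were left out. Genes were named from probes that list 1 gene, with names from the platform annotation and the TAIR10.1 RefSeq table, and probes of a gene were averaged. Family membership came from symbols and synonyms in that table, with patterns adjusted after the names were seen, and some families are not reported here. The members, lists and families were chosen with earlier results of these data known. Named genes were the 10 largest shifts each way, genes crossing wild type, the 5 genes staying lowest and the 5 staying highest, list members and up to 4 members of each family. The counting was run on simulated data with less spread and larger planted shifts than most here, which checks the code and not the counts. No test was made, since each stage is 1 sample. The alternatives concerned the probes of a gene, shared probes, the limit, centring, scaling, the study's list, the size of a call and the unit counted. Software was pandas 2.3.3 and numpy 2.4.6 under Python 3.11.15, scipy 1.17.1 for intervals, and matplotlib 3.10.9.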

Additional observations from a re-analysis of the deposited data

Results flagged for a closer look

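*SWEET9* had opposite ratios past 2-fold at the 2 stages, -1.08 in flower buds and 1.36 in open flowers, a difference of 2.44. It rests on 1 probe and 1 combined ratio per stage, and the difference was not tested.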

How the results depend on the processing

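No paired analysis was possible because replicates were merged into 1 ratio per stage. Of 61 recomputed main values, 22 moved. A count moved if it changed by more than 1.5-fold, and a share if it left its interval. A median or SD moved if it changed by 0.14 or more. Calls at another size, and other sets of probes or genes, change the counts in themselves, so the 22 are no measure of stability. Counts, shares and SDs have no direction that could change, and the median shift of genes lower in buds stayed upward in every setting. That median tends upward by construction, so its kept direction is no support. With probes of several genes kept under each gene, 195 of 13762 genes shifted upward and 125 downward at least 2-fold, against 126 and 77 of 5262. The larger counts thus came with more genes measured. The median shift of genes lower in buds was then 0.85. Without the size limit the counts were 194 and 122 of 5413 genes. Then 43.7% of the genes lower in buds were within 1.5-fold in open flowers, and the SD of the shift was 0.62. With a limit of 1.5 that median was 0.86. Over genes with more than 1 probe 0 genes shifted upward and 1 downward of 276, and 1 gene was lower in buds, with a shift of 0.42. Calls at 1.5-fold gave 381 and 277 genes, a share of 72.8% and a median of 0.71. Calls at 3-fold gave 23 and 18 genes, a share of 33.3% of 6 genes higher in buds and a median of 1.41. Over every transcript probe 542 and 345 of 24745 shifted, with a median of 0.86. These are 2.19% and 1.39% of probes, against 2.39% and 1.46% of genes. Centring and scaling left the values as they were, since both columns already had a median of 0 and the same median absolute deviation. Of 207 recomputed family medians, 24 moved by more than 0.14, the SD between probes pooled over the 276 genes with more than 1 probe (229 of which had identical values), 5 by more than 0.35, the SD over the genes whose probes differ, and 11 changed sign, with the expansins going from 0.20 to -0.27, with the medians over probes that list only family members added after seeing the data, and 53 of 656 values of named genes moved, nearly all where shared probes were averaged in. A gene on no shared probe could not be tested by that setting.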
